A study of Homo sapiens with 8 samples.

Results

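MV4-11 is a human acute myeloid leukemia (AML) line that carries FLT3-ITD and the MLL-AF4 fusion, and every library described here came from it. Cells were exposed for 4 days to the DMSO vehicle (control), to the LSD1 inhibitor tranylcypromine (TCP) at 5 µM, to the CDK4/6 inhibitor palbociclib at 0.5 µM, or to palbociclib and TCP (combination). Per the study's methods, combination cultures received palbociclib alone on the first day and both drugs after it. Each treatment was sequenced as a library numbered replicate 1 and a library numbered replicate 2, so that 8 RNA-seq libraries, all 8 of the series, formed 4 pairs. The question asked of these pairs was which gene programs differed between replicate 2 and replicate 1, and under which treatments. The labels do not say what the libraries of one number had in common, so that culture, day, RNA extraction and sequencing cannot be told apart. The study's methods describe AML lines grown on human HS-5 bone marrow stromal cells, which the labels of these libraries do not mention. Every fold difference below is replicate 2 minus replicate 1 within a treatment, on log2(TPM + 1), where TPM (a read share scaled by gene length and summing to the same total in each library) is the unit of every level.

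Cells of one line kept in parallel can differ in the programs that read their surroundings. Interferon-stimulated genes encode antiviral proteins and are switched on when type I interferon engages its receptor and activates STAT2 and IRF9, among other factors. The ATF4 pathway raises amino acid synthesis and uptake genes when amino acids are short, SREBP factors raise sterol and fatty acid enzymes when sterols are low, and HIF factors raise glucose and pH genes when oxygen is low. Stromal cells secrete collagens and other matrix proteins together with chemokines and matrix metalloproteinases.

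The libraries carried the transcripts of an MLL-rearranged myeloid line. CD33, a myeloid surface receptor, lay between 103 and 141 TPM in the 8 libraries, FLT3 between 62.6 and 263 TPM, the myeloid transcription factor SPI1 between 208 and 497 TPM and the MLL-fusion target HOXA9 between 87.1 and 166 TPM. The T-cell gene CD3E and the hemoglobin gene HBB were listed at 0 in all 8 libraries, and the progenitor marker CD34 did not exceed 0.0387 TPM. Between 13320 and 13640 genes reached 1 TPM per library. The values are normalized and the sequencing depth behind them is unknown.

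Replicate was a smaller source of variation than treatment, yet it was visible under every treatment. Squares were summed over the 14151 genes with at least 1 TPM in 2 or more libraries (of 26364 rows). Treatment took 84.0% of the squares, the replicate difference common to the 4 pairs 7.36% and the residual 8.60%. With 1 library per treatment and replicate, this residual is the part of the replicate differences that varied between treatments. The first principal component held 71.8% of the variance and separated the libraries with palbociclib from those without, whereas the third, with 7.63%, put the 4 replicate 1 libraries between -17.3 and -7.39 and the 4 replicate 2 libraries between 5.18 and 24.3. Replicate numbers thus did not overlap on this component in any treatment. Among the 100 genes that weighed most toward replicate 1 on it, 19 were interferon-stimulated genes, a list of 40 among the 14151 genes tested.

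**Figure D1:**
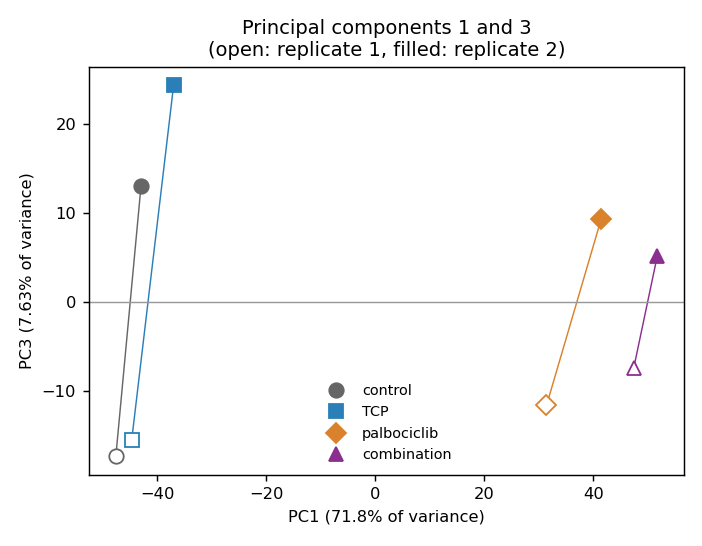
Scores of the 8 libraries on principal component 1 (x axis) and principal component 3 (y axis), with the share of variance on each axis label. Open symbols are replicate 1, filled symbols replicate 2, and a line joins the 2 libraries of a treatment. All 4 filled symbols lie above 0 and all 4 open symbols below 0 on component 3.

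Taken gene by gene, 191 of the 14151 genes (1.35%) differed between replicates across the 4 pairs in limma's moderated test with a term for treatment (Benjamini-Hochberg adjusted p below 0.05). Of these, 79 were higher in replicate 2 (0.558% of genes tested) and 112 were lower (0.791%). The median size was a log2 difference of 0.45 among the higher and of -0.45 among the lower genes, 15 of the 191 reached a difference of 1 in size, and the smallest adjusted p was 0.0312. Before adjustment, 3838 of the 14151 genes (27.1%) had a p below 0.05 in this test. All 191 had one sign in the 4 pairs, which was true without any test of 2107 genes in the higher direction (14.9%) and 3164 in the lower (22.4%). In 65 of the 191, the replicate took more of the gene's squares than the treatment did, as it did in 1219 of the 14151 genes. The 191 were selected for a replicate difference, which raises their count. Treatment, with 4 groups, also has more terms than replicate, with 2. Of the 191, 51 (26.7%) also passed the study's thresholds for an effect of TCP, palbociclib or the combination, as did 15.0% of all genes tested, in comparisons made on the same 8 libraries. The number of calls was 0 without the control pair, the TCP pair or the palbociclib pair, 12 without the combination pair (7 of them among the 191), and 615 when the genes tested were limited to a mean of 5 TPM or more.

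Among the genes higher in replicate 2, the largest called differences included a chemokine and a secreted protease. CXCL5, a neutrophil-attracting chemokine (GRCh37 chr4:74861359-74864394), was at 6.01 and 31.1 TPM in replicates 1 and 2 of the control, at 5.91 and 25.7 TPM with TCP, at 15.4 and 98.5 TPM with palbociclib and at 23.3 and 40.7 TPM with the combination. Its mean log2 difference was 1.88 (SE 0.28, 4 pairs, adjusted p = 0.0464). MMP3, which encodes the matrix metalloproteinase stromelysin 1 (chr11:102706532-102714340), went from 2.39 to 16.8 TPM in the control, from 4.34 to 18.7 TPM with TCP, from 7.82 to 41.6 TPM with palbociclib and from 15.2 to 27.2 TPM with the combination (mean log2 difference 1.83, SE 0.26, adjusted p = 0.0464). For both genes the combination pair was the closest to 0, at 0.78 and 0.80.

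The largest called difference belonged to an entry named MIR198, at 2.30 (SE 0.35, adjusted p = 0.0475), with 3.92 and 26.2 TPM in the control pair and 9.96 and 96.9 TPM in the palbociclib pair. The hairpin of this microRNA matched GRCh37 chr3:120114515-120114576 and lies in an untranslated region of FSTL1, which encodes a secreted glycoprotein of mesenchymal cells. FSTL1 itself was at 0.633 and 4.24 TPM in the control pair, at 0.9996 and 2.67 TPM with TCP, at 2.14 and 20.7 TPM with palbociclib and at 4.14 and 6.36 TPM with the combination (mean log2 difference 1.47, SE 0.36, adjusted p = 0.0755). Host and microRNA entry were thus both higher in replicate 2 in the 4 pairs, and in these libraries of polyadenylated RNA their reads cannot be assigned to the mature microRNA.

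The other genes named among the higher, a naming limited to genes that averaged 5 TPM or more in one replicate, included leukocyte, sulfotransferase, transcription factor and small RNA genes. GAPT, an adaptor protein of hematopoietic cells, rose from 3.21 to 8.41 TPM in the control, from 2.67 to 12.3 TPM with TCP, from 22.2 to 44.1 TPM with palbociclib and from 33.5 to 69.5 TPM with the combination (1.25, SE 0.15, adjusted p = 0.0429). FGL2, a fibrinogen-like protein of monocytes and macrophages, was at 17.4 and 48.3 TPM in the control pair and at 170 and 281 TPM in the combination pair (1.11, SE 0.12, adjusted p = 0.0429). The sulfotransferase gene CHST2 (0.91) and SASH1 (0.72) were also among them. SULT1A1, a phenol sulfotransferase (0.91), FAM127A (0.95), the transcription factor genes FOXP2 (0.79) and NEUROG3 (0.73) and the small nucleolar RNA entry SNORD15A (0.84) completed the 12 largest at 5 TPM or more. All of these 12 except FOXP2 and SNORD15A also had a higher level with the combination than in the control in both replicates.

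The genes lower in replicate 2 included a cell surface proteoglycan and a cyclin, whereas the MIR26A2 (-1.57) and MIR711 (-1.33) entries, with larger differences, stayed below 5 TPM. SDC2, the heparan sulfate proteoglycan syndecan 2, was at 37.7 and 14.2 TPM in the control pair, 27.2 and 8.52 TPM with TCP, 68.8 and 30.7 TPM with palbociclib and 60.6 and 33.8 TPM with the combination, a mean log2 difference of -1.22 (SE 0.12, adjusted p = 0.0378). CCND2, the cyclin D2 gene whose product partners CDK4 and CDK6 (chr12:4378937-4414519), went from 18.4 to 7.59 TPM, from 20.9 to 6.72 TPM, from 21.1 to 11.8 TPM and from 23.2 to 13.0 TPM in the same order (-1.07, SE 0.13, adjusted p = 0.0429). Every replicate 1 library held more CCND2 than every replicate 2 library, and treatment took only 14.2% of its squares against 79.6% for replicate. CABLES1, which encodes a CDK-binding protein, was also lower (-0.80, SE 0.092, adjusted p = 0.0429). The drug targets themselves were not called, with log2 differences of 0.10 (SE 0.058) for CDK4, 0.07 (SE 0.069) for CDK6 and -0.05 (SE 0.053) for KDM1A, the LSD1 gene, and adjusted p-values of 0.338, 0.547 and 0.619.

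APOL4, of the apolipoprotein L family, had the smallest adjusted p among the lower genes shown (19.1 and 7.90 TPM in the control pair, -1.12, SE 0.076, adjusted p = 0.0312), together with MIR155HG, the host transcript of miR-155 (69.1 and 35.8 TPM, 78.8 and 33.9 TPM, 33.7 and 15.8 TPM, 31.1 and 17.7 TPM, -0.99, SE 0.075, adjusted p = 0.0312). MIR155HG was about as different between replicates as between the control and palbociclib (log2 fold change -1.07). Other genes of this group were DNASE2, the acid DNase of lysosomes (-1.04), AIG1 (-1.01), MYBPH, a myosin-binding protein (-0.95), the transglutaminase TGM2 (-0.93), LY96, the TLR4 co-receptor MD-2 (-0.91), the MIR186 entry (-0.88) and the phosphatase PTPN3 (-0.80).

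Short noncoding entries made up 17 of the 191 calls, out of 904 tested, beside 1.35% of all genes called. Of the 17, 11 lie inside a protein-coding gene on the same strand. None of the 11 host genes was called by limma (8 had an unadjusted p below 0.05, as did 27.1% of all genes), and 7 had the direction of the entry. MIR21, which is not among the calls (adjusted p = 0.0513), was lower in each pair, at 50.7 and 15.95 TPM in the control, 60.4 and 7.60 TPM with TCP, 146 and 60.8 TPM with palbociclib and 128 and 59.2 TPM with the combination, whereas its host VMP1 had a log2 difference of -0.27 (adjusted p = 0.0635). The mature sequences of the microRNAs of MIR198, MIR21 and MIR155HG, from RefSeq on GRCh38.p14, follow with the seed (bases 2 to 8) in capitals, and no seed is shared among them.
hsa-miR-198: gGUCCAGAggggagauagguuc
hsa-miR-21-5p: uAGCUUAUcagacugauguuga
hsa-miR-155-5p: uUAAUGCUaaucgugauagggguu

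Called genes of the oxidative stress response were higher in replicate 2 under each treatment. NQO1, a quinone reductase and NRF2 target, was at 27.8 and 42.6 TPM in the control pair, 40.6 and 62.4 TPM with TCP, 18.5 and 25.9 TPM with palbociclib and 40.6 and 56.6 TPM with the combination (0.54, SE 0.050, adjusted p = 0.0378). TALDO1, the transaldolase of the pentose phosphate pathway, rose by 0.33 (SE 0.036, adjusted p = 0.0429) and FTL, the ferritin light chain, by 0.33 (SE 0.048, adjusted p = 0.0464). In all, 4 of the 17 NRF2 targets tested were called, all higher, beside a background of 0.558%, and 7 of the 17 were higher in all 4 pairs, beside 14.9% of all genes. The median of the list was nevertheless small, between 0.02 and 0.15 per pair. PRDX2, a peroxiredoxin outside the list and chosen here after its values were seen, differed by 0.53, 0.53, 0.58 and 0.54 in the 4 pairs, and replicate took 93.6% of its squares.

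Interferon-stimulated genes had replicate differences of opposite sign without and with palbociclib. All 40 genes of the list were lower in replicate 2 in the control pair and in the TCP pair, with medians of -1.20 and -1.64, while 30 of the 40 were higher in replicate 2 in both pairs that held palbociclib, where the medians were 0.40 and 0.16. Over all genes the 4 medians lay between -0.05 and 0.00. The opposite signs of these 30 genes (75.0% of the list) occurred in 6.50% of all genes. Across the 4 pairs no member was called by limma (2 of the 40 had an unadjusted p below 0.05, as did 27.1% of all genes). The mean differences ran from -1.22 for IFIT2 to 0.06 for BST2.

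ISG15, a ubiquitin-like protein that interferon induces, was at 189 and 69.7 TPM in replicates 1 and 2 of the control and at 146 and 39.8 TPM with TCP. With palbociclib it was at 31.7 and 43.3 TPM and with the combination at 49.5 and 58.7 TPM. Replicate 1 of the control and of TCP thus held the highest levels, and in the 2 pairs with palbociclib replicate 2 was slightly above replicate 1. MX1, a GTPase that blocks viral replication, had the same directions, at 98.3 and 40.4 TPM, 89.8 and 17.1 TPM, 15.5 and 33.6 TPM and 34.1 and 48.3 TPM, as did IFI44, at 99.3 and 36.3 TPM, 88.7 and 12.9 TPM, 9.18 and 18.4 TPM and 22.0 and 28.1 TPM. IFI6, a mitochondrial interferon-induced protein, was at 377 and 135 TPM, 353 and 81.3 TPM, 290 and 563 TPM and 377 and 508 TPM, so that the replicate 2 library of the palbociclib pair held its highest level. IFIT2, which binds viral RNA, differed from these in being lower in replicate 2 in all 4 pairs, at 168 and 65.4 TPM, 97.1 and 13.1 TPM, 7.57 and 6.12 TPM and 12.3 and 8.66 TPM.

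STAT2, IRF9 and IRF7, factors that carry the interferon signal and are members of the list, had smaller differences than its median in the control and TCP pairs. Their differences were -0.61, -0.71 and -0.62 in the control pair and 0.14, 0.36 and 0.61 in the palbociclib pair. IFNB1, the interferon beta gene, was at 3.76 and 2.16 TPM in the control pair and at 1.98 and 0.558 TPM with TCP, was listed at 0 in both palbociclib libraries, and was at 0 and 0.127 TPM with the combination. IFNG was listed at 0 in all 8 libraries.

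The difference between the pairs with and without palbociclib was tested as an interaction of replicate and palbociclib. All 40 interferon-stimulated genes had a positive estimate with a median of 1.74, 2.82 for IFI27 (SE 0.27), 2.79 for IFI44L (SE 0.58), 2.69 for IFI44 (SE 0.43) and 2.58 for MX1 (SE 0.38), and their adjusted p-values lay between 0.0776 and 0.222. Over all 14151 genes limma called 0 (0%) for this interaction, 2182 genes (15.4%) had an unadjusted p below 0.05, among them all 40 of the list, and the smallest adjusted p was 0.0776. With genes filtered at a mean of 5 TPM, 58 of 11108 genes were called for the interaction, 18 of them among the 39 members left. The interaction with TCP likewise gave 0 calls (0%), with 352 genes (2.49%) at an unadjusted p below 0.05 and a smallest adjusted p of 0.832.

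In terms of the drugs, the same values gave changes of different size in the 2 replicates. Palbociclib against control had a median log2 difference of -1.91 over the 40 genes in replicate 1 and of -0.31 in replicate 2, and 38 and 26 of the 40 genes were lower. For the combination the medians were -1.49 and -0.15, with 34 and 22 genes lower. TCP went the other way, with -0.20 in replicate 1 and -0.74 in replicate 2. With both replicates together and at the study's thresholds, 0 of the 40 genes passed under palbociclib or TCP and 1 under the combination, namely IFITM3, which was higher by 1.10.

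The stretches upstream of these genes were searched for the core of the interferon-stimulated response element, taken as GAAA, any 2 bases and GAAA again, on both strands of the 250 bases before the start. Of 27305 genes with a RefSeq promoter on GRCh38.p14, 3.71% held a match, as did 21 of the 30 interferon-stimulated genes with one there (70%) and 4 of the 129 called genes with one (3.1%). The 21 members with a match had medians of -1.27, -1.71, 0.45 and 0.20 in the control, TCP, palbociclib and combination pairs, and the 9 without had -0.90, -1.35, 0.36 and 0.06. Below are the 160 bases before the start of 4 members, 5′ to 3′ on the strand of the gene, with matches in capitals: ISG15 (chr1:1013337-1013496, plus strand), IFI6 (chr1:27672193-27672352, minus strand), IFIT1 (chr10:89392463-89392622, plus strand) and BST2 (chr19:17405631-17405790, minus strand). IFI6 holds 3 matches in this stretch and the others 2 each, which overlap in ISG15 and BST2.
ISG15: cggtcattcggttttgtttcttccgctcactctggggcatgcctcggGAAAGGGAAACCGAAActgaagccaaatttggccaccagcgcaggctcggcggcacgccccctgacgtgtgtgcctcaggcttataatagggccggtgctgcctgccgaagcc
IFI6: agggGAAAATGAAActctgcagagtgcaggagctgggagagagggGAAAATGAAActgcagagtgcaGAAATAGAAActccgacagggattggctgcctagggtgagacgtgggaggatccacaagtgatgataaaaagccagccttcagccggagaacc
IFIT1: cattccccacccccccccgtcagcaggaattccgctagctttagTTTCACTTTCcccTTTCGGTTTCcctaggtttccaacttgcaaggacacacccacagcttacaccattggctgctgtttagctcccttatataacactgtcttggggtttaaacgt
BST2: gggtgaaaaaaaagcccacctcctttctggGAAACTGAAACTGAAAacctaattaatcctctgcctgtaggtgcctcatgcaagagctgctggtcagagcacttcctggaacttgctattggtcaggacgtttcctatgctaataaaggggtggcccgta

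The genes shown were not alike in their levels. IFIT1 was at 61.6 and 22.3 TPM in the control pair, 42.5 and 5.45 TPM with TCP, 2.59 and 3.92 TPM with palbociclib and 6.81 and 7.39 TPM with the combination. BST2, the virus-tethering protein tetherin, changed little beside it, at 244 and 226 TPM, 268 and 246 TPM, 296 and 367 TPM and 348 and 388 TPM.

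Markers of stromal cells were not called between replicates, and their widest differences were in the palbociclib pair. Of all 34 markers, 20 had more TPM in replicate 2 in each of the 4 pairs and 1 had less in each, while 9.55% of the 26364 rows of the table had more in each pair. Only 21 of the 34 reached the filter, 6 of them with 1 TPM in fewer than 2 replicate 1 libraries, so that these 6 passed through their levels in replicate 2. The medians over the 21, which this filter raises, were 0.51 in the control pair, 0.39 with TCP, 1.97 with palbociclib and 0.45 with the combination. Their mean difference over the 4 pairs had a median of 0.91, against 0.46 with no filter. limma called 0 of the 21 (15 had an unadjusted p below 0.05, as did 27.1% of all genes), and the smallest adjusted p was 0.0532, for CAV1. In bulk RNA, a change in the number of such cells and in the RNA each one holds cannot be told apart.

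Summed over the whole list, the stromal markers were at 385 and 420 TPM in the control pair, 414 and 417 TPM with TCP, 681 and 1054 TPM with palbociclib and 773 and 850 TPM with the combination. Replicate 2 was thus above replicate 1 in each pair, by little in the control and TCP pairs. The sum of 6 matrix genes (COL1A1, COL1A2, COL3A1, DCN, SPARC and FN1), picked with the values of these libraries known, was 1.69 and 7.55 TPM in the control pair, 1.95 and 7.17 TPM with TCP, 6.10 and 92.6 TPM with palbociclib and 10.9 and 18.4 TPM with the combination. For these 6 genes, replicate 2 of palbociclib was the highest library, more than 5 times above the next. COL3A1, a fibrillar collagen, was at 0.0221 and 0.314 TPM in the control and at 0.45 and 17.5 TPM with palbociclib, and COL1A1 at 0.185 and 1.23 TPM and at 1.32 and 22.2 TPM. Other stromal genes did not follow: POSTN was listed at 0 in all 8 libraries and LUM stayed at or below 0.193 TPM.

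Some secreted mediators, chosen after their values were seen and not called, were also highest in replicate 2 of palbociclib. IL6 was at 3.39 and 14.5 TPM in the control pair, 2.92 and 11.7 TPM with TCP, 8.08 and 84.6 TPM with palbociclib and 14.7 and 23.7 TPM with the combination (1.85, SE 0.37, adjusted p = 0.0612). The growth factor CSF3 (2.15, SE 0.43, adjusted p = 0.0614), the BMP antagonist GREM1 (2.05, SE 0.44, adjusted p = 0.0643) and the collagenase MMP1 (1.86, SE 0.35, adjusted p = 0.0575) did likewise, with MMP1 at 33.4 and 220 TPM in the palbociclib pair. IL1B, an inflammasome cytokine, was at 2.84 and 26.3 TPM in the control pair and at 18.3 and 94.2 TPM with palbociclib. With the combination it was at 61.9 and 69.2 TPM. Among the 20 NF-kB targets and cytokines tested, NFKBIA, the inhibitor that NF-kB itself induces, was the 1 gene called (0.29, SE 0.045, adjusted p = 0.0475), beside 0.558% of all genes called higher. Of the 20, 6 were higher in all 4 pairs (14.9% of all genes) and 3 lower in all 4 (22.4%), with a median of -0.01. The part that stromal RNA had in the differences of CXCL5, MMP3, MIR198 and these mediators was not tested.

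**Figure D2:**
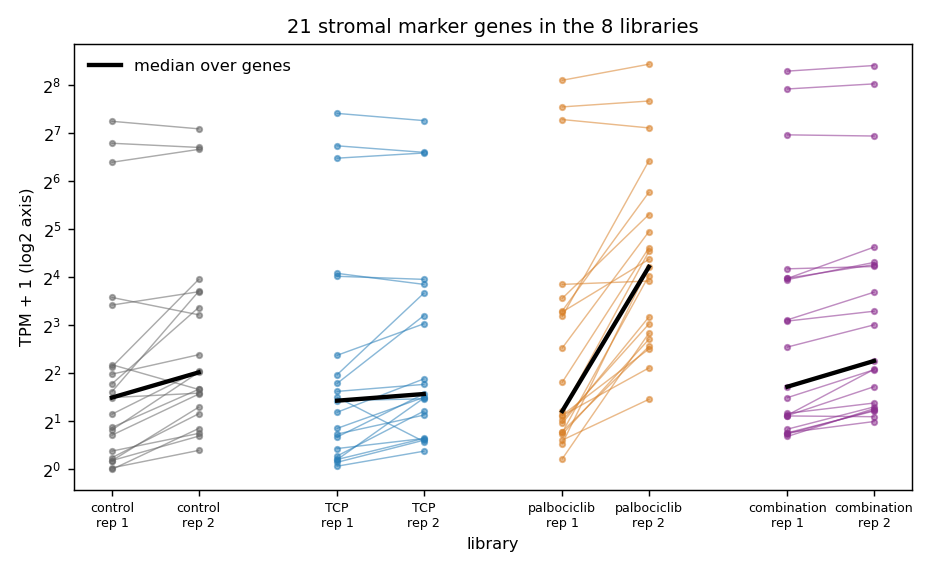
Levels of the 21 stromal marker genes that passed the filter (TPM + 1, log2 axis) in the 8 libraries, with a thin line per gene within a treatment and a thick black line for the median over genes. The steepest rise from replicate 1 to replicate 2 is in the palbociclib pair.

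Amino acid response genes had medians below 0 that were largest in size where palbociclib was absent. Medians over the 35 genes of the ATF4 list were -0.38 in the control pair, -0.76 with TCP, -0.07 with palbociclib and -0.04 with the combination, and 16 of the 35 were lower in all 4 pairs, beside 22.4% of all genes. In limma's test of the palbociclib interaction, which called no gene, 23 of the 35 had an unadjusted p below 0.05, as did 15.4% of all genes. ASNS, asparagine synthetase, was at 209 and 137 TPM in the control pair, 188 and 85.9 TPM with TCP, 19.5 and 15.7 TPM with palbociclib and 16.5 and 15.8 TPM with the combination (-0.52, SE 0.16, adjusted p = 0.116). TRIB3, a pseudokinase induced by ATF4, behaved alike at 96.1 and 57.7 TPM, 66.2 and 28.3 TPM, 8.13 and 7.62 TPM and 6.71 and 6.39 TPM. Both genes were low in both replicates with palbociclib present.

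The 1 gene of this list that was called, beside 0.791% of all genes called lower, was CBS, cystathionine beta-synthase of the transsulfuration pathway (-0.59, SE 0.089, adjusted p = 0.0475). It was at 50.4 and 40.7 TPM in the control pair and at 4.34 and 2.31 TPM with palbociclib, with larger differences in the palbociclib and combination pairs (-0.69 and -0.77) than in the control (-0.30). Of the 20 aminoacyl-tRNA synthetases, which charge tRNAs with amino acids, 12 were lower in all 4 pairs (22.4% of all genes). None was called (11 had an unadjusted p below 0.05, as did 27.1% of all genes), with TARS closest (-0.29, SE 0.047, adjusted p = 0.0513). The 22 hypoxia genes had medians of -0.29, -0.73, -0.06 and 0.00, with none called and 14 at an unadjusted p below 0.05 (27.1% of all genes). For the palbociclib interaction, 11 of the 22 had an unadjusted p below 0.05 in limma (15.4% of all genes). BNIP3, a mitophagy receptor, was at 88.4 and 49.4 TPM in the control pair, 96.8 and 37.2 TPM with TCP, 14.5 and 13.2 TPM with palbociclib and 10.3 and 10.4 TPM with the combination, and ADM, adrenomedullin, went the other way in the control pair, from 2.83 to 8.43 TPM.

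Sterol and fatty acid genes had medians slightly below 0 in each pair. Of the 23 cholesterol genes tested, 15 were lower in all 4 pairs (22.4% of all genes) and none was higher in all 4, with medians of -0.26, -0.37, -0.12 and -0.11. MSMO1, a sterol oxidase, was at 76.7 and 53.4 TPM in the control pair, 76.4 and 38.4 TPM with TCP, 39.9 and 32.9 TPM with palbociclib and 45.1 and 35.1 TPM with the combination (-0.53, SE 0.12, adjusted p = 0.0649). Of the 12 fatty acid genes, the desaturases SCD (-0.36, SE 0.046, adjusted p = 0.0437) and FADS2 (-0.32, SE 0.048, adjusted p = 0.0475) were called, beside 0.791% of all genes called lower. SCD went from 801 to 682 TPM, 695 to 516 TPM, 257 to 201 TPM and 241 to 180 TPM, so that its replicate difference was far smaller than its log2 fold change of -1.70 with palbociclib.

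Cytosolic ribosomal protein genes had nearly equal medians in the 4 pairs, at -0.10, -0.10, -0.11 and -0.07. Of the 78 genes, 51 were lower in all 4 pairs (22.4% of all genes) and 3 were called, all lower (0.791% of all genes), namely RPL39 (-0.40), RPS3A (-0.27) and RPL38 (-0.25). The median of the list was -0.10 on TPM as deposited and -0.06 after median-ratio scaling. TXNIP, a glucose-sensing MondoA target (-0.36, adjusted p = 0.0429), CD36, a fatty acid transporter (-0.62, adjusted p = 0.0429), and CHI3L1, a secreted glycoprotein of neutrophil granules (-0.64, adjusted p = 0.0429), were further genes that were lower in all 4 pairs. CHI3L1 was at 446 and 320 TPM with palbociclib and at 17.3 and 12.035 TPM in the control, so that its replicate difference held at both levels.

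Of the lists of immediate early genes, DNA replication and mitosis, the called members were EGR1, DUSP2 and MKI67, all higher in replicate 2. EGR1, an immediate early transcription factor, was at 31.7 and 57.5 TPM in the control pair, 18.0 and 23.3 TPM with TCP, 12.2 and 26.0 TPM with palbociclib and 7.15 and 11.5 TPM with the combination (0.71, SE 0.11, adjusted p = 0.0475). With the phosphatase DUSP2 (0.42, SE 0.061, adjusted p = 0.0464) it was called among 29 immediate early genes, beside 0.558% of all genes called higher, and 9 of the 29 were higher in all 4 pairs (14.9% of all genes) and none lower in all 4. The 30 genes of DNA replication had medians of 0.22 and 0.34 in the control and TCP pairs and of -0.03 and 0.07 with palbociclib and the combination. Of the 30, 12 were higher in all 4 pairs (14.9% of all genes) and none was called (14 had an unadjusted p below 0.05, as did 27.1% of all genes). E2F1, which drives entry into S phase, was the closest (0.35, SE 0.060, adjusted p = 0.0536). MKI67, the proliferation antigen, was the 1 gene called among 30 of G2 and mitosis, at 68.9 and 108 TPM in the control pair and 22.7 and 30.0 TPM with the combination (0.45, SE 0.063, adjusted p = 0.0464). Of those 30 genes, 7 were higher in all 4 pairs (14.9% of all genes) and 1 lower in all 4.

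Myeloid differentiation markers had small medians, with larger differences for single genes. LYZ, the lysozyme of monocytes and neutrophils, was at 278 and 770 TPM in the control pair and 718 and 1696 TPM with TCP, but at 16431 and 18984 TPM with palbociclib and 26591 and 28617 TPM with the combination. Its replicate differences were 1.47, 1.24, 0.21 and 0.11, and it shared the smallest adjusted p for the palbociclib interaction (-1.20, SE 0.092, adjusted p = 0.0776). CYBB, the phagocyte NADPH oxidase subunit, had 1.26, 1.17, 0.38 and 0.11. Over the 30 myeloid differentiation markers tested the medians were only 0.08, 0.06, 0.03 and 0.03. None was called by limma, and 10 had an unadjusted p below 0.05, as did 27.1% of all genes. Of the 30, 9 were higher in all 4 pairs (14.9% of all genes) and 5 lower in all 4 (22.4%), and 16 had an unadjusted p below 0.05 for the palbociclib interaction (15.4% of all genes).

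Within single pairs, where 1 library stands against 1 and no test is possible, the differences of at least 1 in size numbered 179 higher and 148 lower in the control, 128 and 286 with TCP, 247 and 87 with palbociclib and 108 and 85 with the combination. The lower genes of the control and TCP pairs were led, among those with at least 20 TPM in a library, by IFI27, MIR21 and RSAD2 and by IFI44L, MIR21 and IFIT2. The higher genes of the control pair were led by IL1B, MMP1 and MIR198, and those of the palbociclib pair by the MIR3606 entry, which overlaps an exon of COL3A1, GREM1 and CSF3. The combination pair was instead led by SNORD21, the creatine kinase CKB and MIR4691, with CKB at 17.9 and 44.3 TPM with palbociclib and 20.2 and 62.3 TPM with the combination against 8.34 and 12.5 TPM in the control. Across the 14151 genes, which are not independent replicates, the differences of the control and TCP pairs had a Pearson correlation of 0.49, those of the palbociclib and combination pairs 0.30, and the 4 mixed pairs of pairs between 0.17 and 0.29.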

How the data were processed

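The 8 mRNA libraries of MV4-11 cells (4 treatments, replicates 1 and 2) were analysed from 1 table. The deposited values are TPM that the authors computed per gene: per the labels and the study's methods, stranded mRNA libraries were aligned to GRCh37 with Subread and counted with featureCounts 1.6.4, and no depth remains in them. Values were taken as log2(TPM + 1) for genes with at least 1 TPM in 2 or more libraries. limma 3.58.1 in R 4.3.3 (lmFit, eBayes with a mean-variance trend) was fitted with terms for treatment and replicate (3 residual degrees of freedom), and again with an interaction of replicate with palbociclib or TCP (2), with Benjamini-Hochberg adjustment over all genes and a threshold of 0.05. For drug effects, a gene had to reach 1 in log2 fold change, in either direction, at an adjusted p under 0.01. The code was tested on simulated data. Alternatives were the pseudocount, filters, scalings, the trend, the pairing and leaving out pairs.

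The shared replicate numbers were taken as pairing the libraries within treatment, as the comparison was set to do. The replicate differences of all 6 pairs of treatments correlated at 0.17 to 0.49 across genes. These are the same differences that were tested, so they cannot show that libraries of one number were linked. Nothing in the labels says that the libraries are separate cultures, so that p-values measure only the spread between these libraries. Named genes were the 12 with the largest called differences per direction (one sign in 4 pairs, at least 5 TPM in the higher replicate), up to 4 called genes per list, the 3 largest per pair and direction and per interaction, and the drug targets. The comparison, gene lists and naming rule were chosen with earlier results of these data known. With 4 pairs an exact sign-flip test of a single gene cannot go below p = 0.125 (two-sided), so that none was used. Gene positions are from GENCODE on GRCh37, and microRNA and promoter sequences from RefSeq on GRCh38.p14. The mitochondrial genome's transcripts are not analysed here. Results for some genes are not reported here.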

Additional observations from a re-analysis of the deposited data

Results flagged for a closer look

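In 9 of 36 gene lists checked, the medians of both pairs without palbociclib had one sign and those of both pairs with palbociclib the other. The heat shock list is among them only through a median of -1.3e-05 in the palbociclib pair. The difference, pairs with palbociclib minus pairs without, was 1.70 for interferon-stimulated genes, 0.36 for metallothioneins and zinc transport, 0.17 for iron handling, 0.13 for glycolysis, 0.13 for lysosome genes, -0.11 for nuclear genes of oxidative phosphorylation, -0.22 for ribosome biogenesis, -0.24 for heat shock genes and -0.28 for MHC class II. These differences of medians were not tested, and how many lists would meet this rule by chance was not estimated. Apart from the first, the differences are below 0.4.

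In 4 of 60 groups of 4 pair differences (36 lists, 24 genes), 1 pair lay far from the other 3 by Dixon's criterion, which chance alone meets in about 1 group of 20. The stromal markers had a median of 1.97 in the palbociclib pair against 0.39 to 0.51 in the others. Cytosolic ribosomal proteins had a median of -0.072 in the combination pair against -0.11 to -0.10, SULT1A1 a difference of 1.14 in the combination pair against 0.82 to 0.85, and PTPN3 a difference of -0.58 in the control pair against -0.90 to -0.85.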

How the results depend on the processing

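All 191 called genes kept their sign in each alternative in which they were tested. Because all 191 had one sign in the 4 pairs, only quantile normalization and median-ratio scaling could have reversed it. The number of genes called between replicates depended on the settings. It was 191 as reported, 131 with a pseudocount of 0.1 (130 of them among the 191) and 237 with quantile normalization (171 shared), but 615 with a mean of at least 5 TPM (174 shared), 84 with median-ratio scaling (84 shared), 1 with no filter on low values, 1 with no mean-variance trend, 0 with no pairing within treatment and 0 at the thresholds of the study. Leaving out 1 pair gave between 0 and 12 calls. The palbociclib interaction gave 0 calls except for 58 at the 5 TPM filter, and the TCP interaction 0 under the same alternatives. With replicate as a block, drug calls went from 1937 to 2038 under the combination, from 1288 to 1386 under palbociclib and from 8 to 20 under TCP. Of the 44 called genes named, none reversed, which again only these scalings could have changed. At that filter of 5 TPM, 42 of the 42 tested passed, as did 40 of the 44 with quantile normalization, 32 with a pseudocount of 0.1 and 26 with median-ratio scaling. The median-ratio scaling moved the median of all genes from -0.02 to 0.01. The cause of these changes was not tested. TPM keep no depth, so that counting error cannot be set beside any value, and 4 pairs with 3 residual degrees of freedom limit what could be called.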

Other observations

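Heat shock genes, not described above, had medians above 0 where palbociclib was absent. Over the 17 genes of the list the medians were 0.20 in the control pair, 0.26 with TCP, 0.00 with palbociclib and -0.03 with the combination, and 3 of the 17 were higher in all 4 pairs (14.9% of all genes). Genes of ribosome biogenesis also had medians above 0 without palbociclib and below 0 with it, at 0.13, 0.19, -0.07 and -0.04 over 28 genes. None of either list was called between replicates by limma (5 of the 17 and 4 of the 28 had an unadjusted p below 0.05, as did 27.1% of all genes). For the interaction of replicate and palbociclib, 13 of the 17 and 12 of the 28 had an unadjusted p below 0.05, as did 15.4% of all genes. LUC7L3, a splicing factor gene, was the 1 member called among 10 genes of a list of nuclear-retained RNAs (-0.48, SE 0.055, adjusted p = 0.0429), and POMP, the proteasome maturation protein, the 1 called among 32 proteasome genes (-0.28, SE 0.043, adjusted p = 0.0475). Of all genes, 0.791% were called lower. MHC class I genes had medians of -0.19 and -0.16 without palbociclib and of 0.03 and -0.03 with it, and 2 of the 12 were lower in all 4 pairs (22.4% of all genes).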
